A study of Cricetulus griseus with 27 samples.

Results

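MicroRNA counts were compared between the exosomes and the microparticles (MPs) released by ammonia-stressed Chinese hamster ovary cells of the CHO-K1 line, a line widely used to make recombinant proteins. The comparison used 6 of the 27 small RNA libraries of the series, 3 from exosomes and 3 from MPs, chosen by their labels alone. Both groups came from shaken CHO-K1 cultures of 15 mL with 6 mM glutamine that received 9 mM NH4Cl at their start, and both were harvested on day 3. The labels call the replicates biological but do not say whether an exosome and an MP library came from the same flask, so p-values measure the spread between these libraries. All 6 were TruSeq Small RNA libraries and belonged to 1 pool of 18. That pool also held 6 vesicle libraries of an osmotic culture (60 mM NaCl added, no NH4Cl), used here for the spread between replicates and as a second culture. The sources used here do not give how the fractions were separated, and protein markers of the vesicles were not analysed here.

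MPs form by budding of the plasma membrane and are the larger vesicles. Exosomes are smaller and leave the cell when endosomal compartments fuse with that membrane. Both carry miRNAs, short RNAs that guide Argonaute proteins to messenger RNAs and lower their output, and neither need hold the same mixture as the cell. Ammonia builds up in CHO cultures as glutamine is used and slows growth, which is why its effect on the cells and their vesicles is of interest.

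The exosome libraries held 203816, 153845 and 116689 counts and the MP libraries 2967003, 1962086 and 2569616. These totals do not measure the number of vesicles or the RNA in each, which cannot be told apart in such bulk samples. Of 4815 entries, each a mature miRNA named for hamster (cgr), mouse (mmu), rat (rno) or human (hsa), 341 had at least 1 count in the 6 libraries. Exosomes had counts for 226 of them and MPs for 315, and 90 and 153 were counted in all 3 libraries of the group. A count of 0 in all 3 libraries allows up to 6.32 counts per 1000000 (CPM) in exosomes and 0.400 in MPs, for counting error only. Near-identical miRNAs and the same miRNA under several species can share reads, so values of single family members, the let-7 members above all, are uncertain. Of 102 entries for markers of other cell types, 5 were counted. They were cgr-miR-486-5p and cgr-miR-486-3p (red cell), cgr-miR-128-3p (neuron), mmu-miR-1a-3p (muscle) and mmu-miR-203-3p (epithelium). The level of mmu-miR-1a-3p was 26.0 CPM in exosome replicate 2 and 0 in the others. That of mmu-miR-203-3p was 4.91 CPM in exosome replicate 1, 0.337 CPM in MP replicate 1 and 0 in the others. Entries for miR-122 (liver), miR-124 (neuron), miR-133 (muscle), miR-451 (red cell), miR-223 (blood cell) and the miR-200 family (epithelium) were at 0 in all 6 libraries. The summed marker level was 0.949%, 0.00455% and 0.00428% of counts in exosomes and 0.132%, 0.234% and 0.312% in MPs, most of it from miR-486-5p, a miRNA abundant in red cells, except in exosome replicate 2 and MP replicate 1. The miR-128-3p entry, a neuron marker, stood at 686 CPM in MP replicate 1 against 635 CPM for miR-486-5p.

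The let-7 guide strands took from 47.3% to 67.9% of counts in the 6 libraries. Their share was lower in every exosome library than in every MP library, and the mixture of members differed. In every exosome library let-7a, let-7c and let-7f took a smaller share of counts than in every MP library, and let-7g a larger one. Outside let-7, miR-24-3p, miR-23a-3p, miR-30d-5p, miR-151-5p and the entry miR-3168 were higher in every exosome library. Another 30 entries, among them miR-221-3p, miR-125a-5p, miR-93-5p and miR-28-3p, were low in the exosome libraries and higher in every MP library. The replicate spread was wide, and the test across all entries passed only let-7a.

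**Figure D1:**
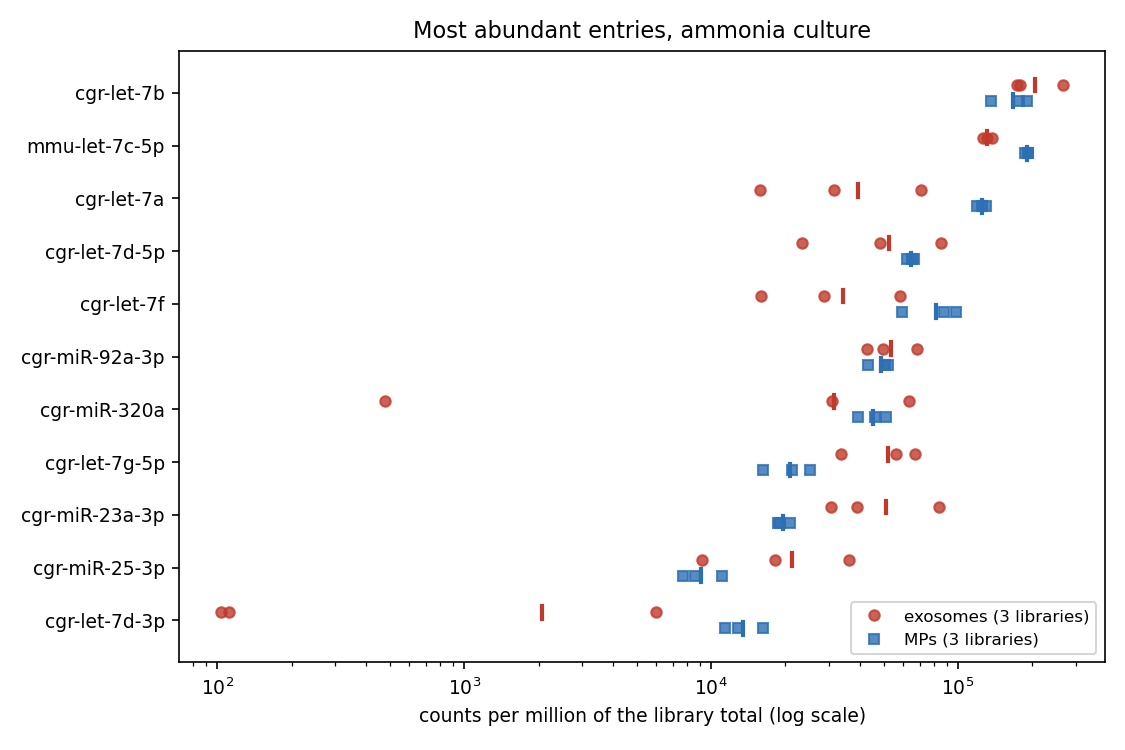
Level of the most abundant entries in each of the 6 ammonia vesicle libraries, in CPM on a log axis. Circles are exosome libraries, squares MP libraries and vertical bars the means of 3. The MP libraries lie close together, while the exosome libraries spread widely for let-7d-3p and miR-320a. The groups separate for let-7a, let-7c, let-7f and let-7d-3p (exosomes lower) and for let-7g and miR-23a-3p (exosomes higher).

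The let-7 family restrains growth and marks differentiated cells, and its members share a seed, so they are expected to bind overlapping sets of messages. Its guide strands together took 59.9%, 55.1% and 47.3% of the counts in the exosome libraries, or 54.1% ± 6.3 (SD, n = 3). In the MP libraries they took 67.3%, 66.0% and 67.9%, or 67.1% ± 0.98 (SD, n = 3). No exosome library reached the lowest MP library. In the osmotic culture the shares were 42.6%, 48.3% and 42.8% in exosomes and 61.5%, 62.6% and 74.0% in MPs, again without overlap. An exact two-sided permutation test over 3 against 3 libraries cannot go below p = 0.1, so no p is given for such shares.

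The member that passed the test was cgr-let-7a. It stood at 70554, 31473 and 15828 CPM in exosomes and at 129737, 119126 and 125140 CPM in MPs. All 3 exosome libraries were below all 3 MP libraries, and the exosome libraries differed from each other far more. In the fit of 12 vesicle libraries its level was lower in exosomes by a log2 fold change of -2.23 ± 0.46 (SE), and edgeR's quasi-likelihood test with Benjamini-Hochberg adjustment gave an adjusted p of 0.0028. The median log2 fold change of all tested entries in that fit was -3.37, so let-7a was less lowered than the median entry. Only cgr-let-7a was past the threshold of 0.05 among the 129 tested (0.775%). At an unadjusted p under 0.05 there were 31 entries, all with exosomes lower, and none was higher in exosomes at an adjusted p under 0.05 (0.0%). That direction came with the TMM scale. Under RLE scaling 20 entries had an unadjusted p under 0.05, 19 of them higher in exosomes. Under the authors' library sizes there were 23, of which 22 were higher. The call of cgr-let-7a depended on its setting. Leaving out MP replicate 1 gave an adjusted p of 0.371, leaving out osmotic exosome replicate 3 gave 0.257, and leaving out osmotic MP replicate 1, 2 or 3 gave 0.225, 0.213 and 0.271. Without exosome replicate 1, 2 entries passed, cgr-let-7a and cgr-let-7d-3p. Over the 25 alternative settings the adjusted p ran from 0.000989 to 0.805. The sign itself turned to +0.28 under RLE scaling and +1.499 under the authors' library sizes.

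A ratio of entries within a library does not depend on any scaling. In CPM let-7a and let-7f were lower and let-7g higher in every ammonia exosome library, so their ratios had to separate there. Only the size of those ratios adds to the levels. The ratio of let-7a to let-7g was 1.05, 0.564 and 0.473 in exosomes and 6.09, 7.33 and 4.98 in MPs. Thus let-7a exceeded let-7g severalfold in every MP library, was close to it in exosome replicate 1 and below it in the other exosome libraries. In the osmotic culture the ratio was 1.10, 2.21 and 2.56 in exosomes against 5.28, 5.83 and 4.94 in MPs, also without overlap. The ratio of let-7f to let-7g was 0.867, 0.284 and 0.856 in exosomes and 4.59, 3.65 and 3.48 in MPs. For let-7c against let-7b the ratio was 0.787, 0.474 and 0.737 in exosomes and 1.41, 1.02 and 1.06 in MPs, so that let-7b led in exosomes and let-7c in MPs. That last ratio did not separate in the osmotic culture, at 0.9497, 0.913 and 0.914 in exosomes and 0.885, 0.893 and 0.639 in MPs.

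The other let-7 guide strands divided. By level, cgr-let-7g-5p stood at 67203, 55816 and 33499 CPM in exosomes and 21314, 16240 and 25133 CPM in MPs, all exosome libraries above all MP libraries. Its fitted log2 fold change was +0.80 ± 0.76 (edgeR adjusted p = 0.467). The most abundant exosome entry, cgr-let-7b, overlapped, at 173681, 265228 and 178166 CPM against 136460, 189548 and 176518 CPM. Its fitted log2 fold change was -0.15 under TMM (edgeR adjusted p = 0.758). Under RLE scaling cgr-let-7b passed as higher in exosomes, at +2.74 (edgeR adjusted p = 0.0117). The level of mmu-let-7c-5p was 136751, 125607 and 131263 CPM in exosomes and 192680, 192674 and 186743 CPM in MPs. It was the steadiest abundant entry in both groups, and its groups did not overlap. For cgr-let-7f the levels were 58268, 15867 and 28675 CPM against 97864, 59325 and 87444 CPM, lower in every exosome library by a narrow margin. The cgr-let-7d-5p levels of 48156, 23355 and 85655 CPM in exosomes lay on both sides of the 66213, 65167 and 62333 CPM of MPs. Its partner strand cgr-let-7d-3p, cut from the same hairpin, stood at 5971, 104 and 111 CPM in exosomes and at 12870, 16278 and 11393 CPM in MPs. Of the 9 let-7 guide entries tested, 1 passed (lower), 1 was higher without overlap and 3 lower without overlap, where 4.65% and 26.4% of all tested entries were. Their median log2 fold change was -1.03 against -3.37 over all entries. The median of the let-7 guide entries turned to +2.01 under RLE scaling and +2.77 under the authors' library sizes.

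Over all 129 tested entries, 40 had groups that did not overlap in CPM (31.0%), 6 with exosomes higher (4.65%) and 34 with exosomes lower (26.4%). The scale set the balance. The median log2 fold change of all tested entries was -3.37 under the TMM scaling reported, -2.71 under summed counts, -0.05 under RLE and +0.22 under the authors' library sizes, so a change is best read against that median. Non-overlapping entries under RLE numbered 11 with exosomes higher and 22 lower, and under the authors' sizes 9 and 12. With every library thinned to the depth of the shallowest there were 6 and 33, close to the counts at full depth. All 6 higher entries, and all 30 lower entries outside let-7, kept their fitted direction under all 6 scalings tried (TMM, TMMwsp, RLE, summed counts with and without let-7, and the authors' sizes).

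**Figure D2:**
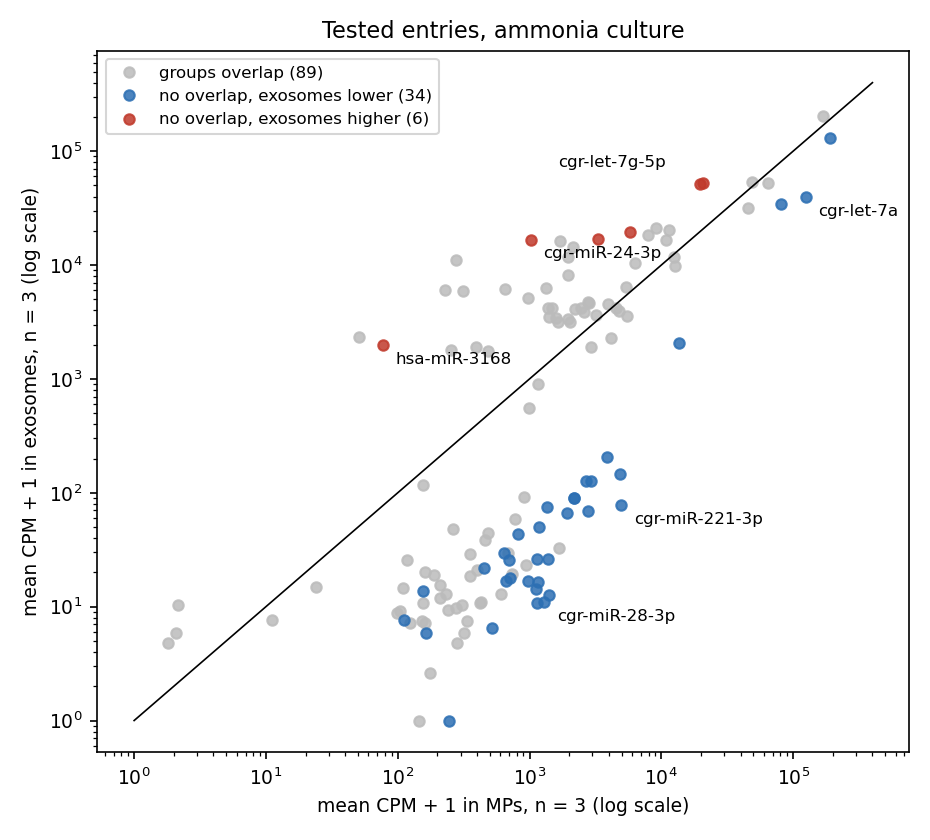
Mean level in exosomes against mean level in MPs for the 129 tested entries, as CPM + 1 on log axes, with the line of equality. Red marks the 6 entries higher in every exosome library, blue the 34 lower in every one, and grey the entries whose groups overlap. Most blue points lie well below the line at exosome levels under 500 CPM, and the blue points near the line are let-7 members.

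The 6 entries higher in every exosome library took 15.5%, 11.5% and 20.6% of exosome counts and 4.91%, 4.91% and 5.36% of MP counts. The largest of them outside let-7 was cgr-miR-23a-3p, which is made from a shared transcript with miR-27a and miR-24 and is linked to proliferation. It stood at 39070, 30544 and 83855 CPM in exosomes and 18994, 20816 and 18741 CPM in MPs. The MP libraries were nearly equal and every exosome library was above them. Its fitted log2 fold change of +0.89 ± 0.80 did not pass (edgeR adjusted p = 0.445), but under RLE scaling its adjusted p was 0.0339. Over the alternative settings that gave one, its adjusted p ran from 0.0339 to 0.842. Against let-7c, its ratio within each library was 0.286, 0.243 and 0.639 in exosomes and 0.0986, 0.108 and 0.1004 in MPs. As let-7c was lower in CPM in every exosome library, this ratio had to separate.

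Its cluster partner cgr-miR-24-3p stood at 5112, 11219 and 33894 CPM in exosomes and at 91.7, 1561 and 1411 CPM in MPs. All exosome libraries were above all MP libraries, and the log2 fold change was +3.67 ± 2.07 (edgeR adjusted p = 0.203). The mouse entry mmu-miR-24-3p, at 83.4, 14970 and 28417 CPM in exosomes and 3598, 1944 and 924 CPM in MPs, overlapped. Summed over both species entries, miR-24-3p stood at 5196, 26189 and 62311 CPM in exosomes and 3690, 3504 and 2335 CPM in MPs, again without overlap. The third member, cgr-miR-27a-3p, was at 9955, 13 and 42.8 CPM in exosomes and 2708, 690 and 2476 CPM in MPs, with the first exosome library high and the others low. The miR-23/27/24 list as a whole took 5.43%, 5.68% and 14.6% of exosome counts and 2.61%, 2.57% and 2.53% of MP counts. None of its 6 tested members passed, 2 were higher without overlap (4.65% of all tested entries were), and its median log2 fold change was +0.46 against -3.37 over all entries.

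From the widely expressed miR-30 family, mmu-miR-30d-5p stood at 31833, 9984 and 16977 CPM in exosomes and 5500, 5221 and 6626 CPM in MPs. Every exosome library was above every MP library (log2 fold change +1.20 ± 1.16, edgeR adjusted p = 0.472). In the osmotic culture it was also higher in every exosome library, at 40589, 11743 and 16368 CPM against 9487, 11539 and 3267 CPM.

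The entry hsa-miR-3168 is 1 of 34 on a list of database entries thought to overlap fragments of other RNA classes. It stood at 1202, 1593 and 3188 CPM in exosomes and at 82.6, 88.2 and 57.2 CPM in MPs. The gap between the groups was wide and both groups were fairly even (log2 fold change +4.22 ± 2.46, edgeR adjusted p = 0.207). The counts themselves were 245, 245 and 372 in exosomes and 245, 173 and 147 in MPs. The gap in CPM thus came mostly from the smaller summed counts of the exosome libraries. In the osmotic culture hsa-miR-3168 was again higher in CPM in every exosome library, at 1423, 680 and 377 CPM against 132, 209 and 206 CPM. Of the 5 tested members of that list, 1 was higher and 2 lower without overlap, where 4.65% and 26.4% of all tested entries were.

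The arms of the miR-151 hairpin went in opposite directions. By level, cgr-miR-151-5p stood at 10662, 6032 and 34639 CPM in exosomes and 3074, 5149 and 1634 CPM in MPs. The other arm, cgr-miR-151-3p, stood at 24.5, 6.50 and 8.57 CPM in exosomes and at 1624, 682 and 1077 CPM in MPs. Neither arm overlapped between the groups, the log2 fold changes were +1.89 ± 1.80 and -7.00 ± 2.97, and the edgeR adjusted p-values were 0.467 and 0.193. In the miR-106b/25 cluster, whose members share a transcript, cgr-miR-25-3p overlapped and cgr-miR-93-5p did not. The level of cgr-miR-25-3p was at 9190, 18155 and 36182 CPM in exosomes and 11083, 8611 and 7669 CPM in MPs, while cgr-miR-93-5p was at 285, 39.0 and 111 CPM in exosomes and 3420, 5715 and 5413 CPM in MPs.

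By DESeq2, whose size factors put the median of all entries at -0.06, 11 entries passed. The 9 higher were cgr-let-7g-5p, cgr-miR-24-3p, mmu-miR-24-3p, cgr-miR-151-5p, mmu-miR-30d-5p, hsa-miR-3168, cgr-miR-25-3p, mmu-miR-26a-5p and cgr-miR-22-3p, with adjusted p-values from 8.26e-07 for hsa-miR-3168 to 0.0375. The 2 lower were cgr-miR-28-3p (DESeq2 adjusted p = 0.0327) and mmu-miR-6412 (0.0375). By limma-voom 19 entries passed, all lower in exosomes, and these 2 were again among them (adjusted p = 0.0235 for both). Over the alternative settings the adjusted p of both ran from 0.0235 to 0.485, and that of hsa-miR-3168 from 8.26e-07 to 0.397.

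**Figure D3:**
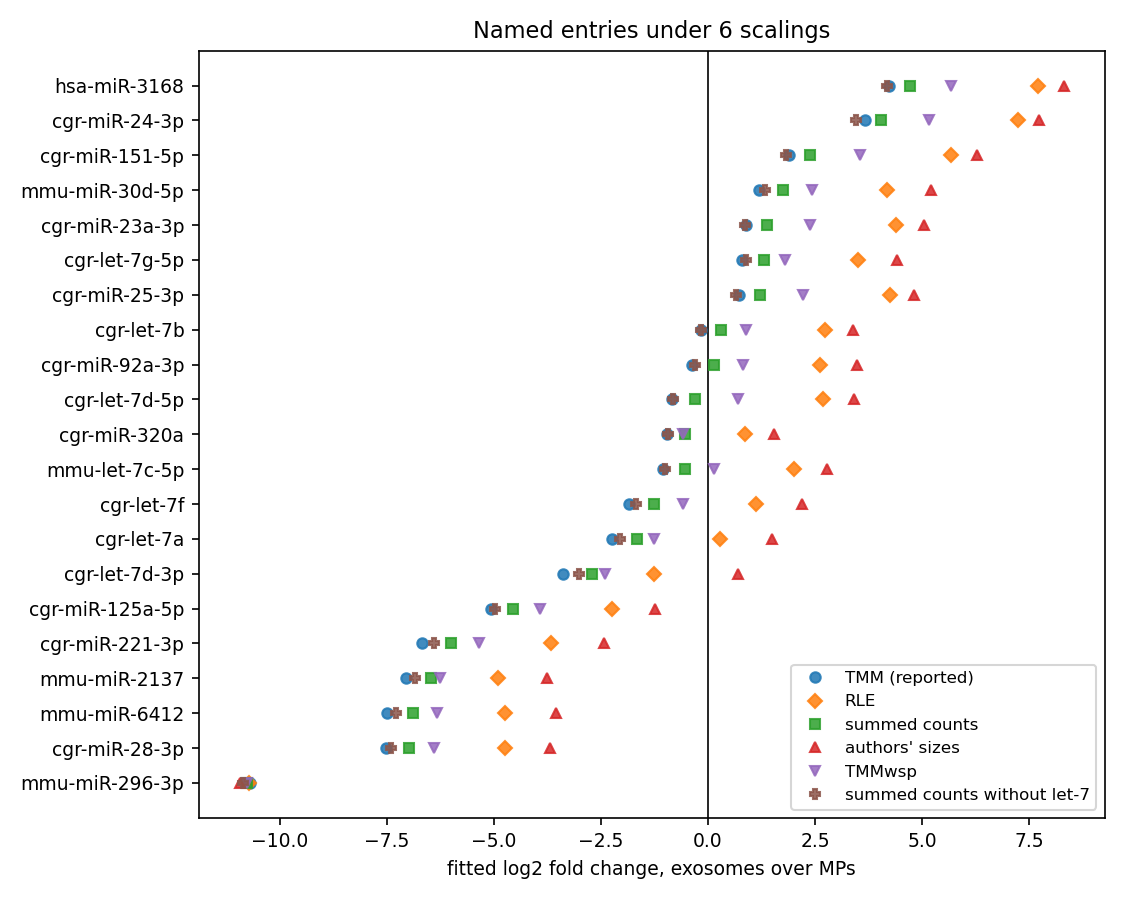
Fitted log2 fold change of named entries, exosomes over MPs, under the 6 scalings; each symbol is 1 scaling and the vertical line is equality. Entries at the top stay above 0 and those at the bottom below 0 under every scaling, while let-7a, let-7b, let-7c, let-7d, let-7f, miR-92a-3p and miR-320a cross it.

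The 30 lower entries outside let-7 took 0.263%, 0.0546% and 0.109% of exosome counts and 5.16%, 4.43% and 4.10% of MP counts. No exosome library held any of them above 393 CPM, and each had from 0 to 109 counts summed over the 3 exosome libraries, with a median of 13. Their edgeR adjusted p-values ran from 0.130 to 0.207, so none passed.

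The most abundant in MPs was cgr-miR-221-3p, a miRNA that promotes cell cycle entry by lowering p27 in human cells. It stood at 152, 19.5 and 60.0 CPM in exosomes and 8269, 4230 and 2412 CPM in MPs (log2 fold change -6.67 ± 2.71). Its neighbour mmu-miR-222-3p, from the same cluster, overlapped, at 58.9, 2509 and 9932 CPM in exosomes and 1015, 2075 and 1043 CPM in MPs. Thus only the first exosome library was low for miR-222-3p, and all were low for miR-221-3p. The summed shares of the miR-221 and miR-222 entries overlapped between the groups.

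The homologue of the worm timing miRNA lin-4, cgr-miR-125a-5p, stood at 201, 71.5 and 103 CPM in exosomes and 1523, 2560 and 4761 CPM in MPs (log2 fold change -5.07 ± 1.97). Its sister cgr-miR-125b-5p overlapped, at 250, 5298 and 137 CPM against 1473, 2607 and 4721 CPM. Within the list of miR-10, miR-99, miR-125 and related entries, 10 were tested, none passed, 4 were lower without overlap (26.4% of all tested entries were) and the median log2 fold change was -2.98 against -3.37 over all entries. The 4 were cgr-miR-125a-5p, mmu-miR-10b-5p, cgr-miR-99a-5p and mmu-miR-99b-5p. Species entries of miR-10b differed: summed over them, miR-10b-5p stood at 11648, 7306 and 12315 CPM in exosomes and 9925, 5244 and 6137 CPM in MPs, which overlap.

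In the miR-17/92 cluster and its paralogs, which promote growth, 9 entries were tested and none passed. The summed share was 7.84%, 6.09% and 8.61% in exosomes and 7.01%, 7.18% and 6.71% in MPs, which overlap. Most of it came from cgr-miR-92a-3p, at 68439, 42575 and 49559 CPM in exosomes and 43374, 52262 and 50365 CPM in MPs. The lower entries without overlap were cgr-miR-93-5p, mmu-miR-92a-3p and cgr-miR-20a. The last stood at 58.9, 0 and 17.1 CPM in exosomes and 1809, 762 and 871 CPM in MPs.

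Single entries of other families were also low in exosomes. The level of cgr-miR-28-3p was 14.7, 6.50 and 8.57 CPM in exosomes and 1411, 1790 and 674 CPM in MPs (log2 fold change -7.52 ± 2.99). For cgr-miR-199a-3p, the levels were 39.3, 0 and 8.57 CPM against 2008, 216 and 683 CPM. From the NF-kB feedback regulator miR-146b, rno-miR-146b-5p stood at 137, 0 and 68.6 CPM against 2749, 3005 and 2591 CPM. The MP levels of miR-146b-5p were even, and the gap to the exosome libraries was wide.

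The mouse entry mmu-miR-29a-3p, of a family that lowers collagens, stood at 211, 6.50 and 51.4 CPM in exosomes and 2247, 2379 and 1871 CPM in MPs. Its hamster entry cgr-miR-29a-3p was at 63.8, 26.0 and 12563 CPM against 1558, 122 and 2764 CPM, with exosome replicate 3 the highest of all. Thus the species entries of miR-29a disagreed, and their sum overlapped between the groups. The entry mmu-miR-296-3p was at 0 in all exosome libraries and at 79.5, 29.6 and 629 CPM in MPs. Its MP mean of 246 CPM was 38.9-fold the exosome floor of 3 counts over the group. Most of that mean came from MP replicate 3, so the fold is smaller for the other MP libraries. With 3 exosome counts in all, mmu-miR-2137 had an exosome to MP ratio of 0.0115 (exact 95% interval 0.00238 to 0.0337, counting error only).

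The remaining lower entries named by size of p were cgr-miR-1260, cgr-miR-1306-5p, cgr-miR-149-5p, cgr-miR-26a-2, cgr-miR-26b-5p, cgr-miR-652-3p, cgr-miR-7a, hsa-miR-139-5p, mmu-miR-6412, mmu-miR-709 and rno-miR-181b-5p. Their mean levels ran from 4.91 CPM (mmu-miR-709) to 206 CPM (cgr-miR-1260) in exosomes and from 162 to 3848 CPM for the same entries in MPs. For miR-139-5p and miR-181b-5p the sum over species entries overlapped between the groups. That of miR-139-5p was 118, 2659 and 8.57 CPM in exosomes and 4189, 2908 and 541 CPM in MPs. That of miR-181b-5p was 1560, 8879 and 68.6 CPM in exosomes and 2878, 2390 and 2853 CPM in MPs.

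Of 24 lists of families, clusters and markers, let-7 guide strands was the 1 with a member past the threshold. Summed levels did not overlap between the groups for a few others. A list of single abundant miRNAs took 6.50%, 6.90% and 10.2% of exosome counts and 4.87%, 5.01% and 5.55% of MP counts, higher in every exosome library. Of its 16 tested members none passed and 4 were lower without overlap, a share near the 26.4% of all tested entries. The median log2 fold change was -1.11 against -3.37 over all entries, opposite in sign to the summed share (+1.95 under RLE scaling). Its leading entries were mmu-miR-26a-5p, cgr-miR-423-5p, cgr-miR-191-5p and cgr-miR-21-5p, each overlapping. The last, a miRNA tied to growth and survival, stood at 13257, 17992 and 291 CPM in exosomes and 8352, 4872 and 5699 CPM in MPs, with exosome replicate 3 the lowest of all.

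The miR-199a, miR-7 and miR-103/miR-107 lists were each lower in every exosome library, at summed shares of at most 0.00785% of exosome counts. In MPs their summed shares ran from 0.0234% to 0.201%. The summed shares of the miR-15/miR-16, miR-29, miR-30, miR-34, miR-181 and miR-320 lists overlapped. The p53-linked miR-34 family was nearly all cgr-miR-34b-3p, at 32220, 17804 and 68.6 CPM in exosomes and 11280, 14089 and 6951 CPM in MPs, again with exosome replicate 3 low. Of the imprinted Dlk1-Dio3 cluster, 4 of 172 entries were counted and 1 was tested.

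The osmotic culture gave the same comparison in other libraries. Its exosome libraries held 158836, 49988 and 26516 counts and its MP libraries 378397, 1103990 and 973076. A count of 0 in all 3 libraries there allows up to 12.75 CPM in exosomes and 1.22 CPM in MPs, for counting error only. Of the 129 entries, 30 were higher in every osmotic exosome library than in every osmotic MP library (23.3%) and 6 were lower (4.65%). Of the 6 entries higher in ammonia exosomes, cgr-miR-24-3p, hsa-miR-3168 and mmu-miR-30d-5p were again higher without overlap, and cgr-let-7g-5p, cgr-miR-23a-3p and cgr-miR-151-5p overlapped. Of the 34 lower entries, 4 were again lower without overlap (cgr-let-7a, mmu-let-7c-5p, cgr-let-7f and cgr-miR-125a-5p), 23 overlapped and 7 were higher in exosomes without overlap. Among the 7, cgr-miR-652-3p was at 25.2, 80.0 and 15764 CPM in osmotic exosomes and 0, 0.906 and 3.08 CPM in osmotic MPs. Its separation thus rested in part on low exosome levels.

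The difference between vesicle kinds was tested for a change between cultures. Of 129 entries, 21 passed the interaction test (16.3%, edgeR adjusted p under 0.05), 20 of them with an exosome to MP log2 difference that was fitted below 0 in the ammonia culture and above 0 in the osmotic culture (15.5%). An example is cgr-miR-7a, at 39.3, 0 and 34.3 CPM in ammonia exosomes and 415, 1439 and 234 CPM in ammonia MPs. In the osmotic culture it stood at 25.2, 6922 and 8900 CPM in exosomes and 0, 1.81 and 0 CPM in MPs. For cgr-miR-28-3p the osmotic levels were 3299, 3921 and 151 CPM in exosomes and 2.64, 0 and 2.06 CPM in MPs. The mean in osmotic MPs was under 50 CPM for 20 of the 21. The exception was cgr-let-7b, with 134422, 173702 and 138407 CPM in osmotic exosomes and 185675, 191574 and 279592 CPM in osmotic MPs. The count fell to 0 when osmotic exosome replicate 2 or 3, osmotic MP replicate 2 or 3 or ammonia exosome replicate 2 was left out. It fell to 1 without ammonia exosome replicate 1 or 3 or osmotic MP replicate 1, and to 10 without osmotic exosome replicate 1.

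Exosome libraries held an abundant entry either at a high level or almost not at all. Of 76 entries averaging at least 1000 CPM in either group, the exosome libraries had 31, 43 and 26 at or above 1000 CPM and 45, 33 and 50 below 500 CPM, with 0 in between. Among their 228 values the highest under 1000 CPM was 480 and the lowest above it 1202. The MP libraries had 3, 7 and 10 of the 76 entries between 500 and 1000 CPM.

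**Figure D4:**
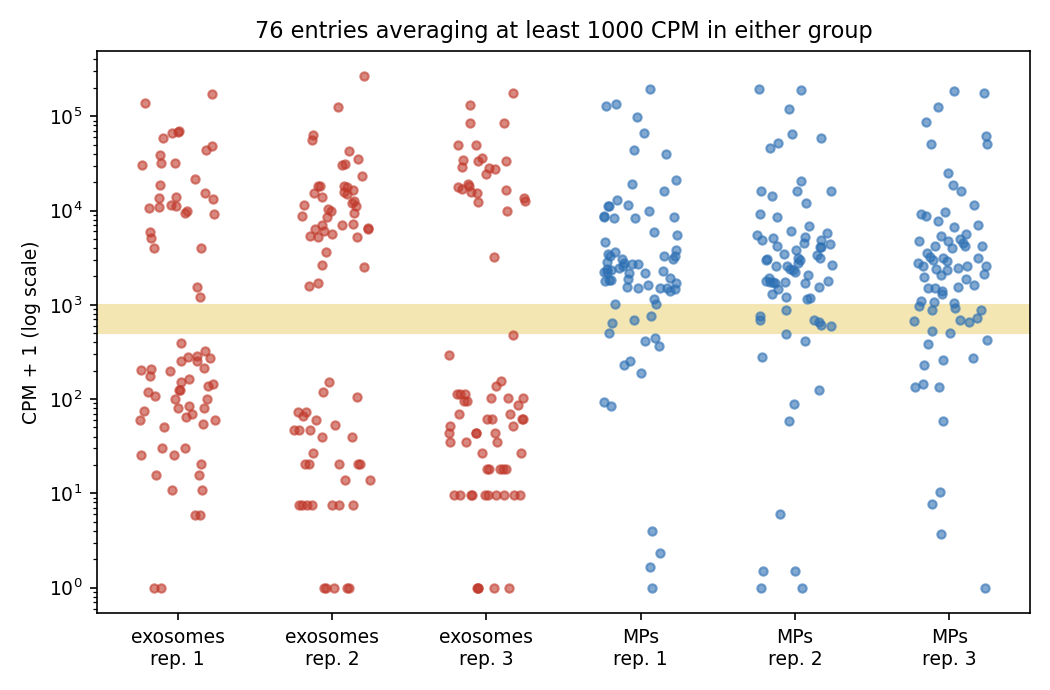
Levels of the 76 entries that averaged at least 1000 CPM in either group, 1 point per entry and library, as CPM + 1 on a log axis; red is exosomes, blue MPs and sideways scatter carries no value. The shaded band from 500 to 1000 CPM is empty in all 3 exosome libraries and holds 3, 7 and 10 entries in the MP libraries.

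Which entries were high differed from one exosome library to the next. Of 56 entries averaging at least 1000 CPM in exosomes, 15 reached that level in all 3 libraries, 13 in 2 and 28 in only 1. Those 15 took 75.7%, 64.7% and 77.5% of exosome counts. In MPs, 42 of 65 such entries reached it in all 3 libraries, 20 in 2 and 3 in 1. The median coefficient of variation of these entries was 146% in exosomes and 37.3% in MPs. In the osmotic culture 18 of 74 such entries reached 1000 CPM in all 3 exosome libraries and 25 of 60 in all 3 MP libraries. The median coefficients of variation there were 148% in exosomes and 87.1% in MPs. Levels spread over 100-fold between libraries for 30 of the 60 osmotic MP entries and for 3 of the 65 ammonia MP entries. Examples from the ammonia exosome libraries are cgr-miR-181a-5p, at 13738, 0 and 42.8 CPM, and cgr-miR-148b-3p, at 4.91, 18044 and 8.57 CPM. The abundant cgr-miR-320a, which is known from mouse cells to be processed without Drosha, was at 30763, 63382 and 480 CPM in exosomes and 39343, 45895 and 50878 CPM in MPs. Of the 28 entries high in only 1 exosome library, 7 were high in replicate 1, 15 in replicate 2 and 6 in replicate 3, and 15 were at or above 1000 CPM in all 3 MP libraries. The main miR-486-5p entry, cgr-miR-486-5p, was such an entry, at 9460, 13 and 34.3 CPM in exosomes and 635, 2339 and 3114 CPM in MPs.

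The low counts in exosome libraries followed how abundant an entry was in the rest of the pool. Among entries under 500 CPM in a library and with more than 20000 counts over the other 17 libraries of the pool, the count in exosome replicates 1, 2 and 3 had a Spearman's rho of 0.848 (88 entries), 0.531 (79) and 0.736 (94) with that sum. In MP replicates 1, 2 and 3 the values were 0.284 (39), 0.359 (45) and 0.338 (39). These are correlations across entries that share a library and a pool, given as a description, and genes are not independent replicates. The part of reads from other libraries of the pool in the low exosome levels was not tested. All 30 lower entries outside let-7 were under 500 CPM in every exosome library.

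**Figure D5:**
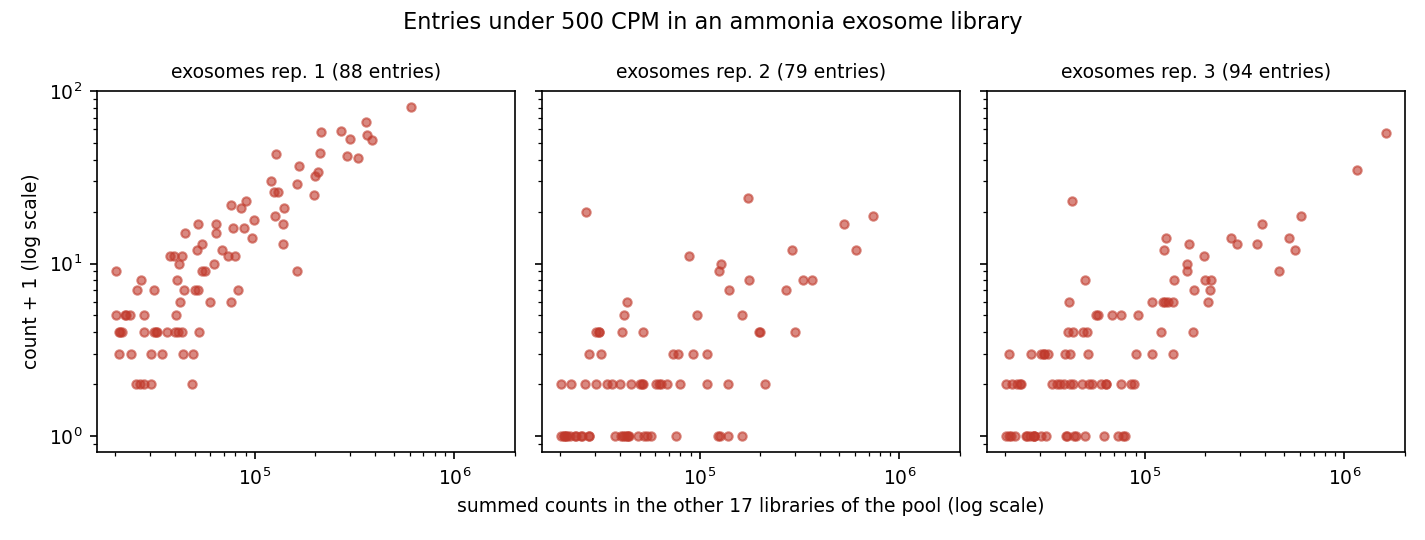
Count + 1 of each entry under 500 CPM in an ammonia exosome library (1 panel per replicate) against its summed counts in the other 17 libraries of the pool, both on log axes; each point is 1 entry. Counts are higher where the pool sum is higher, most tightly in replicate 1 (Spearman's rho 0.848) and least in replicate 2 (0.531).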

How the data were processed

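CHO-K1 small RNA libraries of ammonia exosomes and MPs (3 each) were compared. The deposited values are whole counts of reads for each mature miRNA entry. Trimming, a length limit and grouping by mature sequence are stated per the file headers. The submitters' processing notes name FastQC 0.10.1, cutadapt 2.8 and the builds GRCm38, GRCh38 and Rnor_6.0, and no source used here names the counter. Columns that the authors headed CPM hold a normalised signal, the count over an effective library size, which served only as a scaling alternative. In exosomes those sizes were 0.0992, 0.973 and 0.0595 times the summed counts, and in MPs 1.12, 1.20 and 0.884 times. The authors' table of comparisons and its 54 columns of values per sample were not used.

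Printed CPM values are counts over the library's summed count. The test was the quasi-likelihood F test of edgeR 4.0.16 (TMM, filterByExpr by group) in R 4.3.3, in 1 fit of the 12 MP and exosome libraries of the ammonia and osmotic cultures, with Benjamini-Hochberg adjustment over 129 tested entries. The biological coefficient of variation was 1.58. DESeq2 1.42.0 and limma 3.58.1 (voom) were alternatives, and the fit was tested on simulated data, where at the spread of these libraries it recovered few of the changed entries. No sequences were used, as none of the files used here holds them.

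Entries named are the 10 most abundant of each group, those past the threshold at 50 CPM or more, then non-overlapping entries at 50 CPM or more by unadjusted p to a total of 30, and at most 4 per list beside list members higher in exosomes without overlap. The pairs of entries used for ratios followed none of these rules. Examples of the 2-level pattern, of the culture comparison and of DESeq2's calls were chosen after their values were seen. The comparison, lists and rules were chosen with earlier results of these data known.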

Additional observations from a re-analysis of the deposited data

Results flagged for a closer look

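The difference between exosomes and MPs changed between the ammonia and the osmotic culture for 21 entries by edgeR's interaction test. Of the entries named above, the adjusted p of the interaction was 0.0204 for cgr-miR-151-3p, cgr-miR-28-3p, cgr-miR-652-3p, cgr-miR-7a and mmu-miR-296-3p, 0.0209 for cgr-miR-199a-3p, and 0.022 for hsa-miR-139-5p. It was 0.0284 for mmu-miR-709, 0.0291 for mmu-miR-29a-3p and 0.0406 for mmu-miR-6412, all 10 with the fitted exosome level below that of MPs in the ammonia culture and above it in the osmotic culture. For cgr-let-7b it was 0.022, with a fitted log2 difference of -0.15 in the ammonia culture and -1.57 in the osmotic culture (interaction log2 difference +1.41 ± 0.41). Of the 21, 10 were higher in every osmotic exosome library than in every osmotic MP library and 11 lower in every ammonia exosome library than in every ammonia MP library, 7 being both. In 3 of the 21 all osmotic MP libraries were at 0. Low levels limit the osmotic direction of some entries. The mean of mmu-miR-296-3p was 19.2 CPM in osmotic exosomes, where 0 counts allow up to 12.75 CPM, and 0 in osmotic MPs. That of mmu-miR-6412 was 57.7 CPM in osmotic exosomes and 2.06 CPM in osmotic MPs. For these entries a reversal between cultures rests on few counts. Among the rest of the 10 the lowest osmotic exosome mean was 1398 CPM (cgr-miR-199a-3p).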

How the results depend on the processing

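Depth limits entries under about 10 CPM in exosomes. The count of entries past the threshold, 1 as reported, was 11 by DESeq2, 19 by limma-voom, 2 under RLE and 0 under TMMwsp, summed counts, the authors' sizes, thinning, no filter, a 50 CPM filter, species entries summed and the 6 ammonia libraries alone. It ran from 0 to 2 with 1 library left out. Leaving out osmotic libraries, and levels of 500 or 2000 CPM in place of 1000, were alternatives chosen after seeing the data; 15 and 14 of the 56 abundant exosome entries reached those levels in all 3 libraries. The interaction count, 21 as reported, was 10 under RLE, 13 under the authors' sizes, 10 by limma-voom, 7 after thinning and 0 with a 50 CPM filter, no filter or a replicate block, and ran from 0 to 30 with 1 library left out. The replicate block kept let-7a's call (edgeR adjusted p = 0.000989). Exosome and MP libraries of the same number had r of deviations of -0.0169, -0.0781 and 0.00635. As exosome levels spread so widely between replicates, these values cannot tell whether such libraries shared a flask. Non-overlapping entries numbered 21 under the authors' sizes and 47 to 56 with 1 library left out. The let-7 share difference, -13.0 percentage points, ran from -15.9 to -9.60 with 1 library left out.

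Log2 fold changes that turned positive were, by DESeq2, RLE and the authors' sizes, 0.28, 0.28 and 1.499 for let-7a, 2.74, 2.74 and 3.39 for let-7b, 2.69, 2.69 and 3.40 for let-7d-5p, 1.13, 1.13 and 2.20 for let-7f, 2.01, 2.01 and 2.77 for let-7c, 0.88, 0.88 and 1.55 for miR-320a and 2.62, 2.62 and 3.49 for miR-92a-3p, and 0.71 for let-7d-3p under the authors' sizes. With the 6 ammonia libraries, TMMwsp and a 50 CPM filter the values were 0.92, 0.88 and 0.87 for let-7b, 0.69, 0.71 and 0.46 for let-7d-5p, 0.77, 0.81 and 0.78 for miR-92a-3p and 0.14, 0.15 and 0.099 for let-7c. With no filter and after thinning they were 0.73 and 0.57 for let-7b, 0.50 and 0.11 for let-7d-5p and 0.62 and 0.34 for miR-92a-3p. With 18 libraries and summed counts they were 0.31 and 0.30 for let-7b and 0.14 and 0.14 for miR-92a-3p. With 1 library left out, let-7b ran from -0.34 to 0.84, let-7d-5p from -1.43 to 0.60, miR-92a-3p from -0.38 to 0.72 and let-7c from -1.08 to 0.076. The causes were not tested.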
